A study of Homo sapiens with 12 samples.

Results

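The core and linker histone gene clusters were read from 69 of the 48797 probes on each array, all those whose gene symbol starts with HIST1H, HIST2H, HIST3H or HIST4H, in 12 arrays of HT1080 cells. The rule used names only. These probes stand for 64 of the 25157 gene symbols in the table, with 6 probes for the linker histone H1, 17 for H2A, 21 for H2B, 11 for H3 and 14 for H4. The HIST1 cluster on chromosome 6 holds 53 of the genes. HIST2 (7 genes) and HIST3 (3 genes) lie on chromosome 1, and HIST4 (1 gene) on chromosome 12.

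Pairs of H2A, H2B, H3 and H4 form the core around which DNA is wound in the nucleosome, and H1 binds the linker DNA between nucleosomes. The clustered genes are copied mainly in S phase, when new DNA needs new nucleosomes, and most of their mRNAs end in a stem-loop bound by SLBP instead of a poly(A) tail. Some members also give transcripts with a poly(A) tail, and the labelling kit used here primes from such tails, so that transcripts without a tail are not what it is built to label.

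HT1080 is a human fibrosarcoma line. One line was stably transduced with epitope-tagged wild-type ING2 (ING2-WT) and the other with a lipid-binding mutant (ING2-6K/Rmt), and in both the cells' own ING2 is described as depleted. ING2 is a subunit of a histone deacetylase complex whose PHD finger reads methylated histone H3. Cells of either line received the solvent DMSO or 100 uM etoposide, a topoisomerase II poison, for 16 h per the labels, with 3 arrays in each of the 4 groups. A later time point is named for the expression arrays in the study's text. One caption there speaks of the lines as populations and another calls its replicates biological, but neither there nor in the labels are separate cultures described, so each p-value covers the array-to-array spread alone.

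Markers of cell division ran in opposite orders in the lines, and their values come first. TOP2A, a topoisomerase of dividing cells, had an intensity of 2035, 2425 and 3149 on the ING2-WT DMSO arrays and 75.7, 104 and 196 on the ING2-WT etoposide arrays. On the arrays labelled ING2-6K/Rmt the order was turned, with 79.9, 67.1 and 127 in DMSO and 2256, 1937 and 3319 in etoposide. CDKN1A, an inhibitor of cyclin-dependent kinases, mirrored this, at 2964 to 4277 in ING2-WT DMSO, 14618 to 16638 in ING2-WT etoposide, 11504 to 16293 in 6K/Rmt DMSO and 3069 to 5896 in 6K/Rmt etoposide. A probe for ING2 itself (ILMN_1671265) read 21056 and 20293 on 6K/Rmt etoposide arrays 1 and 2 and 112 to 455 on the other 10. The labels name no arrest, so the groups are used as labelled throughout, and the 6K/Rmt results hold for arrays on which TOP2A and CDKN1A ran in the reverse of their ING2-WT order. The arrays numbered 3 stood apart from the others of their groups, and results are given with and without them. Of the mesenchymal markers 9 of 10 passed the filter (VIM at 7977 to 24318), against 2 of 7 epithelial and 1 of 7 blood markers. The latter was CD14, a monocyte gene, at 22.3 to 53.7 in ING2-WT DMSO, 70.1 to 188 in ING2-WT etoposide, 30.4 to 89.2 in 6K/Rmt DMSO and -1.66 to 25.3 in 6K/Rmt etoposide. Its etoposide effect differed between the lines by -3.07 on the log2 scale (limma adjusted p = 0.031), and the difference between the lines in etoposide, 6K/Rmt minus ING2-WT, was -2.53 (0.021). That of CDH1, the epithelial cadherin (2.38 to 147 over the arrays), was -2.40 (0.038). The summed blood list was 48.2 to 188 in ING2-WT DMSO, 180 to 350 in ING2-WT etoposide, 112 to 163 in 6K/Rmt DMSO and 84.1 to 142 in 6K/Rmt etoposide, and PTPRC, which marks white blood cells, was at most 56.7. The summed epithelial list was 141 to 185, 141 to 290 (both ING2-WT, DMSO then etoposide), 168 to 234 and 115 to 200 (both 6K/Rmt). Of the 9 passing mesenchymal markers, 1 was lower in 6K/Rmt than in ING2-WT in etoposide in limma (1.71% of all probes tested). In that comparison 0 of them were higher (2.98%), and their median log2 difference was 0.96. The part of the marker genes in the histone results was not tested.

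Promoter sequence is shown for 6 genes with a probe called in at least 1 comparison, as the 250 bases before the start in RefSeq (GRCh38.p14), 5′ to 3′ on the gene's strand. Capitals mark matches, on either strand, to the CCAAT box (CCAAT), the TATA box (TATAAA), the octamer of H2B promoters (ATTTGCAT) and the H1 box (AAACACA). HIST2H2AC (chr1:149886668-149886917 (+ strand)) and HIST2H2BE are divergent neighbours whose windows overlap, and the same holds for HIST1H2BC (chr6:26123927-26124176 (- strand)) and HIST1H2AC. The others are HIST2H2AA3 (chr1:149842751-149843000 (- strand)), HIST1H2BD (chr6:26157871-26158120 (+ strand)), HIST1H4H (chr6:26285535-26285784 (- strand)) and HIST1H1C (chr6:26056471-26056720 (- strand)).
HIST2H2AC: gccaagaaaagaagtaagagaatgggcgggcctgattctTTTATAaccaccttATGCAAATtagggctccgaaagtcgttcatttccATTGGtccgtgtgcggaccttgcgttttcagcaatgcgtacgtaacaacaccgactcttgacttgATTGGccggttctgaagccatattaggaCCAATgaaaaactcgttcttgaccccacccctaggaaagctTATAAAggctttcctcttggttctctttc
HIST1H2BC: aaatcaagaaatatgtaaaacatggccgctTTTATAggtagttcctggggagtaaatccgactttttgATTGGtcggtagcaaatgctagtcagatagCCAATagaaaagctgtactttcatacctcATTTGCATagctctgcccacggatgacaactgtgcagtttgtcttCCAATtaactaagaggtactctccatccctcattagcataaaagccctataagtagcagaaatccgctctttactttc
HIST2H2AA3: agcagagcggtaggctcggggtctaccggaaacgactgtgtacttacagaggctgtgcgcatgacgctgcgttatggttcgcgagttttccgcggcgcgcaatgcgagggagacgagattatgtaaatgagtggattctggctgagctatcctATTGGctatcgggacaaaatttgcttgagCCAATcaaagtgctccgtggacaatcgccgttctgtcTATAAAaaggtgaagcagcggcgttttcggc
HIST1H2BD: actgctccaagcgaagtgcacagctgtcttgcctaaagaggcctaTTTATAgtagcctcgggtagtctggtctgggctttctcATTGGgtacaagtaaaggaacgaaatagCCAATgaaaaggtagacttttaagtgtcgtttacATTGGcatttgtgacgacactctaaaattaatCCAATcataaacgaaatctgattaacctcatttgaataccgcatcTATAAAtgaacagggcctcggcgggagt
HIST1H4H: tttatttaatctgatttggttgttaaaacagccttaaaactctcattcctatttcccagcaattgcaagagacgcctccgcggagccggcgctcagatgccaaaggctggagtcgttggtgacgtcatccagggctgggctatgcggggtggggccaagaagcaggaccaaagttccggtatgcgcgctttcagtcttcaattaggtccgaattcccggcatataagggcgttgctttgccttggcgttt
HIST1H1C: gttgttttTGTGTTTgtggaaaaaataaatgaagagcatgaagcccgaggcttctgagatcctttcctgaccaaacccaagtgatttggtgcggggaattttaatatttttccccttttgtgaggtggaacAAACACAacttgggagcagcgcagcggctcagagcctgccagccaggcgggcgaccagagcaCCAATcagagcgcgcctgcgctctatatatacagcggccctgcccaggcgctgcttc
The windows differ among themselves: HIST1H2BD has 4 CCAAT and 2 TATAAA matches and no octamer, HIST2H2AC has 3, 2 and 1, and HIST1H4H has no match to any of the motifs.

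Of the 64 genes, 59 matched a promoter window, and HIST1H2AH, HIST1H3I, HIST1H3J, HIST1H4A and HIST1H4C did not. CCAAT, the letters of the factor NF-Y, occurred in 50 windows (84.7%), against 33.0% of 27305 gene promoters of the same length, in every H1, H2A, H2B and H3 window but in 3 of 12 for H4. TATAAA occurred in 66.1% against 11.1%. The octamer, the letters of POU2F1 (OCT1), occurred in 42.4% against 1.66%, in 14 of 18 H2B and 10 of 14 H2A windows. Many H2A windows overlap that of an H2B neighbour, and HIST1H2AD and HIST1H3D have the same window. Matches in shared bases were counted for each gene, so the figures of the classes are not separate. The H1 box occurred in all 6 H1 windows and in 0 of the other classes, against 4.95% of all promoters. No matches to different motifs overlapped in these windows. Among the 19 windows of genes with a passing probe, 15 held CCAAT and 10 the octamer. A match is a description of letters and not a binding site.

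Most of the histone probes were dim. A probe was tested when its normalised intensity reached 64 on at least 3 of the 12 arrays, and 23 probes of 20 genes did so, namely 1 for H1, 7 for H2A, 9 for H2B, 1 for H3 and 5 for H4. Of the other 46 probes, 38 never reached 64, 4 did so on 1 array and 4 on 2 arrays. The brightest value among them was 146, for HIST1H3F on 1 array, and 27 had a mean under 16. The filter keeps a probe that is bright in 1 group alone, so counts over the 23 are a description of probes that passed and not of the clusters as a whole.

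The first comparison asks which histone transcripts responded to etoposide in ING2-WT cells. In limma, 6 of the 23 probes were higher at an adjusted p under 0.05, where 1.43% of the 15459 probes tested were higher, and 0 were lower, where 2.86% were. At an unadjusted p under 0.05, 9 were higher and 1, HIST1H4C, was lower, where 1213 and 1616 of the 15459 were. A fit blocked on array number called 8 higher (3.78% of all tested), with HIST1H1C and HIST1H2BC added, and 1 lower (4.92%), HIST1H4C. That fit set the block on all 12 arrays, also between groups where the number was not taken as a pairing. The 6 called without the block were HIST2H2AA3 (ILMN_2144426), HIST2H2AC, HIST2H2BE, HIST1H2BD (ILMN_1651496), HIST1H2BE and HIST1H4H. The median log2 change was 0.63 over the histone probes and -0.06 over all probes tested. The 3 arrays of a group lay entirely above those of the other for 9 probes (11.6% of all tested) and entirely below for 1 probe (10.8%), HIST1H4C, and they overlapped for 13.

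**Figure D1:**
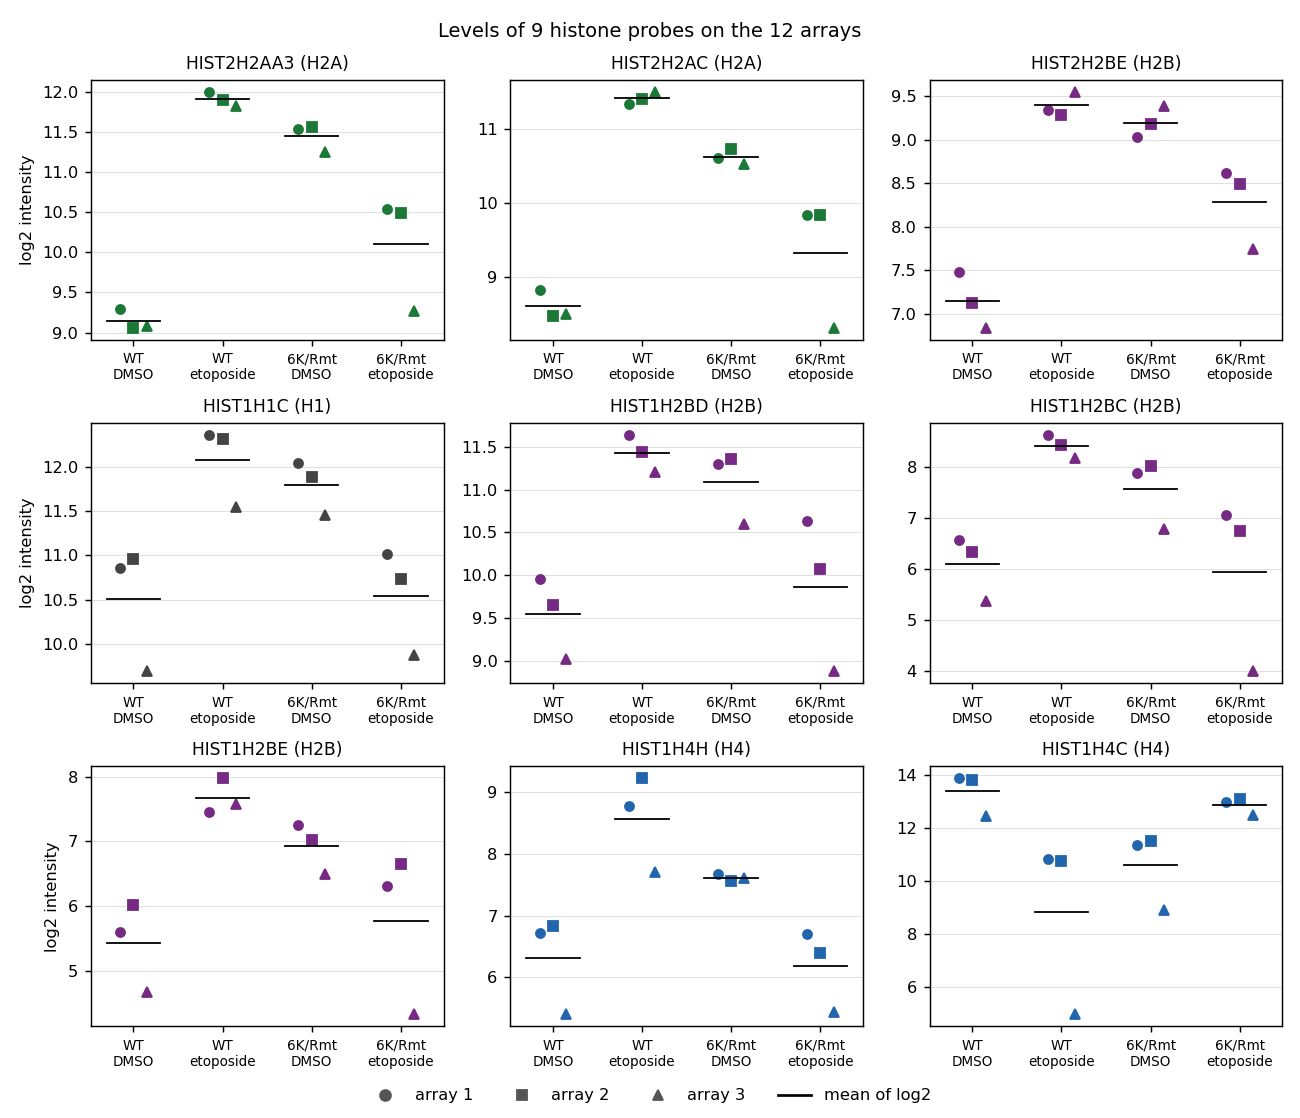
Log2 intensity (y axis) of 9 histone probes in the 4 groups (x axis), with a marker shape for each array number, a colour for each histone class and a line at the mean of the log2 values. HIST1H4C ran from 15025 to 5645 in ING2-WT DMSO and from 1819 to 31.2 in ING2-WT etoposide, and the other 8 probes lay higher on the ING2-WT etoposide arrays than in ING2-WT DMSO.

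The linker histone was represented by HIST1H1C (now H1-2), a common somatic H1. It read 1850.5, 1991 and 829 in ING2-WT DMSO and 5247, 5069 and 2991 in ING2-WT etoposide. The 6K/Rmt arrays read 4213, 3787 and 2802 in DMSO and 2061, 1707 and 944 in etoposide. The groups did not overlap in either line. The log2 change in ING2-WT was 1.57 ± 0.43 (SE), with an adjusted p of 0.068 in limma, and a fit that blocked on array number, since same-numbered arrays of these groups deviated together, gave an adjusted p of 0.0059. The probes for HIST1H1A, HIST1H1B, HIST1H1D, HIST1H1E and HIST1H1T, the last a testis form, did not pass.

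Both H2A genes called higher in ING2-WT in limma with all arrays belong to HIST2. HIST3H2A was also called higher without ING2-WT etoposide array 3, and HIST3H2A and HIST1H2AC without the arrays numbered 3. HIST2H2AA3 (H2AC18) is a replication-dependent H2A gene with a near-identical copy beside it, HIST2H2AA4, which the probe may not tell apart. Its probe ILMN_2144426 read 625, 533 and 541 in ING2-WT DMSO and 4114, 3835 and 3626 in ING2-WT etoposide, 2986, 3017 and 2432 in 6K/Rmt DMSO and 1493, 1435 and 619 in 6K/Rmt etoposide. The ING2-WT etoposide arrays were the highest and the ING2-WT DMSO arrays the lowest, except that 6K/Rmt etoposide array 3 lay within the range of the latter. The log2 change in ING2-WT was 2.77 ± 0.34, with a limma adjusted p of 0.0013.

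HIST2H2AC (H2AC20), another H2A gene of the cluster, read 454, 357 and 363 in ING2-WT DMSO and 2585, 2719 and 2910 in ING2-WT etoposide. On 6K/Rmt arrays the values were 1567, 1700 and 1469 in DMSO and 915, 919 and 318 in etoposide. Groups did not overlap within either line, and the change in ING2-WT was 2.81 ± 0.39 on the log2 scale (limma adjusted p = 0.0024). HIST2H2AB, its other neighbour, stayed dim, at 38.4 to 68.4 in ING2-WT DMSO and 3.28 to 108 in ING2-WT etoposide.

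HIST3H2A and HIST1H2AC show what a single array does here. HIST3H2A read 337, 298 and 225 in ING2-WT DMSO and 844, 779 and 22.6 in ING2-WT etoposide. HIST1H2AC read 537, 452 and 258 against 962, 846 and 15.3. In both genes arrays 1 and 2 were higher with etoposide and array 3 was far below every other array, and the log2 changes were -0.20 and -0.76. HIST1H2AG, at 3.93 to 155 in ING2-WT, overlapped between groups.

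H2B had the most passing probes. HIST2H2BE (H2BC21), the divergent neighbour of HIST2H2AC, read 178, 139 and 114 in ING2-WT DMSO and 650.5, 626 and 753 in ING2-WT etoposide. In 6K/Rmt it read 524, 579 and 669.5 in DMSO and 392, 361 and 215 in etoposide. The order of the groups was that of HIST2H2AC, with no overlap within a line, and the log2 change in ING2-WT was 2.25 ± 0.31 (limma adjusted p = 0.0024).

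HIST1H2BD (H2BC5), an H2B gene of the HIST1 cluster, read 992, 806 and 522 in ING2-WT DMSO and 3190, 2777 and 2359 in ING2-WT etoposide on probe ILMN_1651496. The 6K/Rmt arrays read 2513, 2620 and 1554 in DMSO and 1592, 1076 and 471 in etoposide. The ING2-WT groups did not overlap, whereas 6K/Rmt etoposide array 1 lay above 6K/Rmt DMSO array 3. The log2 change in ING2-WT was 1.88 ± 0.44 (limma adjusted p = 0.036).

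HIST1H2BE (H2BC6), the next gene along, was dimmer, at 48.5, 64.9 and 25.5 in ING2-WT DMSO and 175, 252 and 191 in ING2-WT etoposide, a log2 change of 2.24 ± 0.57 (limma adjusted p = 0.049). HIST1H2BC (H2BC4), which shares its upstream region with HIST1H2AC, read 95.4, 80.4 and 41.7 in ING2-WT DMSO and 399, 348 and 291 in ING2-WT etoposide. Its groups did not overlap, and its change of 2.33 ± 0.70 had a limma adjusted p of 0.096, and of 0.020 when blocked on array number.

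HIST1H2BK (H2BC12) had the highest mean level among the passing H2B probes on ILMN_1796179, and there the ING2-WT groups overlapped. It read 10408, 10249.6 and 4995 in DMSO and 11101, 10249.6 and 6039 in etoposide, a log2 change of 0.12 ± 0.37 (limma adjusted p = 0.89). On 6K/Rmt arrays the values were 10278, 10735 and 7169 in DMSO and 5656, 5500.5 and 5017 in etoposide, with no overlap. HIST1H2BJ, a neighbour, read 309 to 496 in ING2-WT DMSO and 302 to 811 in ING2-WT etoposide. HIST1H2BM was at most 67.4 on any array.

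H3 was left with HIST1H3H (H3C10), a dim probe, at 70.8, 72.2 and 34.2 in ING2-WT DMSO and 155, 69.1 and -9.66 in ING2-WT etoposide. The groups overlapped, the log2 change was -0.01 ± 0.71, and its sign turned under cyclic loess scaling and with the deposited values. In 6K/Rmt it lay at 55.1 to 92.7 in DMSO and 18.6 to 53.5 in etoposide, with no overlap.

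H4 held the member whose values ran against the rest. HIST1H4C (H4C3), an H4 gene between HIST1H1C and HIST1H1T in the order of these genes, read 15025, 14207 and 5645 in ING2-WT DMSO and 1819, 1709 and 31.2 in ING2-WT etoposide. In 6K/Rmt it read 2587, 2918 and 481 in DMSO and 8145, 8629 and 5713 in etoposide. Groups did not overlap within either line, with etoposide below DMSO in ING2-WT and above it in 6K/Rmt. The log2 changes were -4.53 ± 1.30 (limma adjusted p = 0.082) and 2.26 ± 1.30 (0.70). The spread between arrays numbered 3 and the others entered this error. Without ING2-WT etoposide array 3 the change in ING2-WT was -2.59 (adjusted p = 0.057), without the 4 arrays numbered 3 it was -3.05 (0.00026), and a fit blocked on array number gave an adjusted p of 0.021.

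HIST1H4H (H4C8), another H4 gene, moved the other way. It read 106, 114 and 42.4 in ING2-WT DMSO and 438, 596 and 207 in ING2-WT etoposide, 203, 188 and 196 in 6K/Rmt DMSO and 104, 84.5 and 43.3 in 6K/Rmt etoposide. The groups did not overlap within either line, and the log2 change in ING2-WT was 2.24 ± 0.50 (limma adjusted p = 0.028). HIST2H4A, 1 of a pair of near-identical H4 copies, read 184, 127 and 134 in ING2-WT DMSO and 387, 396 and 138 in ING2-WT etoposide, with a change of 0.92 ± 0.46 (limma adjusted p = 0.32). HIST1H4E, a dim probe, reached 64 on 3 arrays. It read 7.07, 16.5 and 32.1 in ING2-WT DMSO and 41.3, 133 and 61.3 in ING2-WT etoposide. Those groups did not overlap, and the change was 1.77 ± 0.55 (limma adjusted p = 0.10). HIST1H4K stayed at 23.7 to 94.5.

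HIST2H2AA3, HIST1H2BD and HIST1H2BK each had a pair of passing probes, and whether both probes of a pair read the same transcripts was not examined here. Probe ILMN_1659047 of HIST2H2AA3 read 5540.4, 4317 and 24.0 in ING2-WT etoposide, where ILMN_2144426 read 4114, 3835 and 3626. Probe ILMN_1758623 of HIST1H2BD read 1913, 1794 and 112, where its partner kept 2359 on array 3. Probe ILMN_1813314 of HIST1H2BK read 1622, 1478 and 18.4, where its partner kept 6039. On arrays 1 and 2 both probes of a gene stood high, and on ING2-WT etoposide array 3 a single probe of each pair was low. Of 3234 probes on the whole array that read 500 or more on the other 11 arrays, 102 (3.15%) read under 64 on this array, and 0 did so on any other array. Of 12 histone probes at 200 or more on the other 11 arrays, 5 were under 64 here, for HIST2H2AA3, HIST3H2A, HIST1H2AC, HIST1H2BK and HIST1H4C. No share of all probes was taken at 200, so this count cannot be set against the 3.15% at 500. The part of these single-probe losses in the changes above was not tested beyond leaving the array out.

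**Figure D2:**
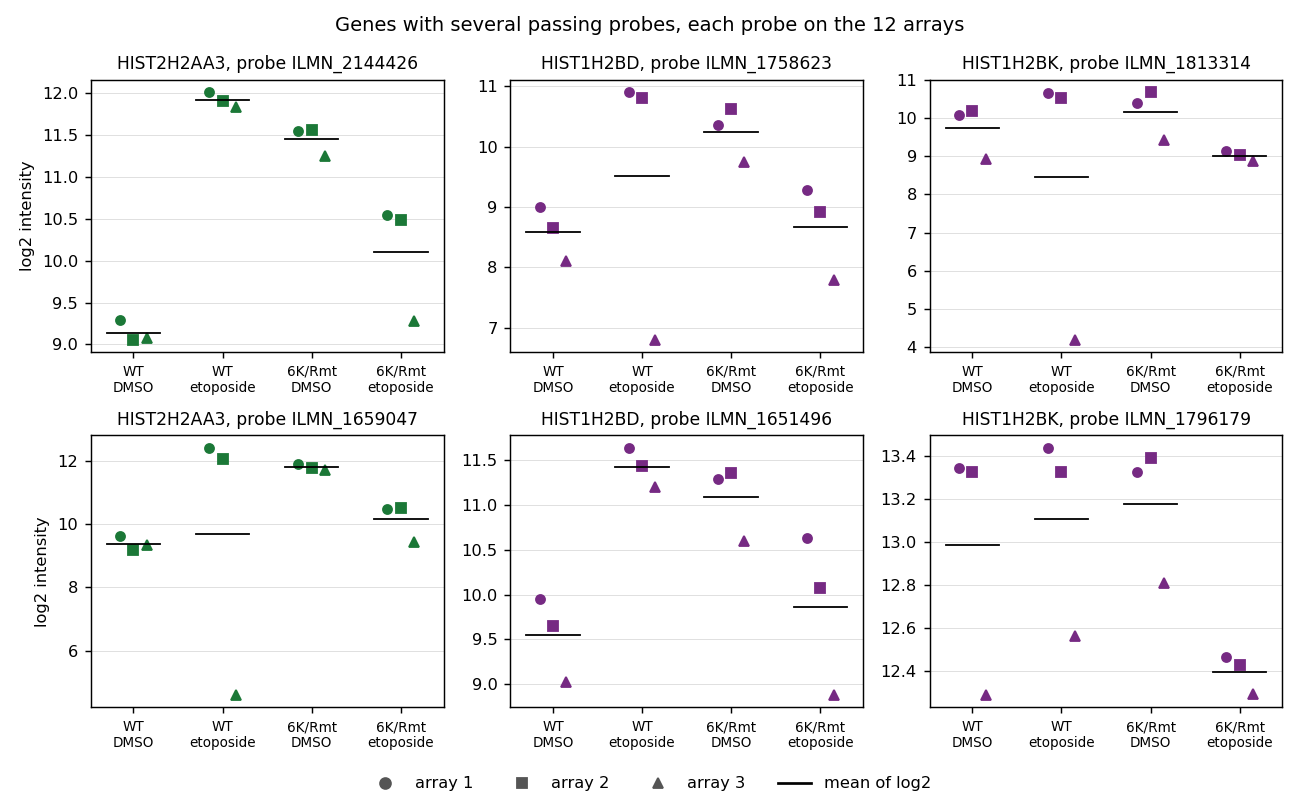
Log2 intensity (y axis) of both passing probes of HIST2H2AA3, HIST1H2BD and HIST1H2BK in the 4 groups (x axis), with a marker shape for each array number and a line at the mean of the log2 values; values under 16 are drawn at 16. On ING2-WT etoposide array 3, ILMN_1659047 (24.0) and ILMN_1813314 (18.4) fell far below the other arrays while the partner probes did not. ILMN_1758623 was also lowest there (112), with 222 on 6K/Rmt etoposide array 3 the next value.

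Without ING2-WT etoposide array 3, 9 of the 23 probes were higher in ING2-WT (1.97% of the probes tested), and the median log2 change was 1.66. The calls then took in HIST1H1C, HIST3H2A and the second probes of HIST2H2AA3 and HIST1H2BD, and lost HIST1H2BE. Leaving out any other ING2-WT array left 3 calls, where 71 to 166 of the 15198 to 15250 probes tested were higher. Without the 4 arrays numbered 3, 14 of 22 probes were higher (13.2% of those tested) and 1, HIST1H4C, was lower (15.6%), with a median of 1.36. The calls for HIST2H2AA3 (ILMN_2144426), HIST2H2AC and HIST2H2BE held under all 24 alternatives.

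In the 6K/Rmt arrays 0 of the 23 probes were higher with etoposide, where 1.28% of all probes were, and 0 were lower, where 0.0712% were, in limma at an adjusted p under 0.05. At an unadjusted p under 0.05, 0 were higher and 8 were lower, where 745 and 557 of the 15459 probes tested were. The median log2 change was -1.16, against -0.04 over all probes tested. Groups did not overlap for 14 probes that were lower in etoposide (9.88% of all tested) and for 1 that was higher (9.13%), HIST1H4C. Without the arrays numbered 3, 15 of 22 probes were lower (19.2% of those tested) and 1 was higher (16.8%).

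**Figure D3:**
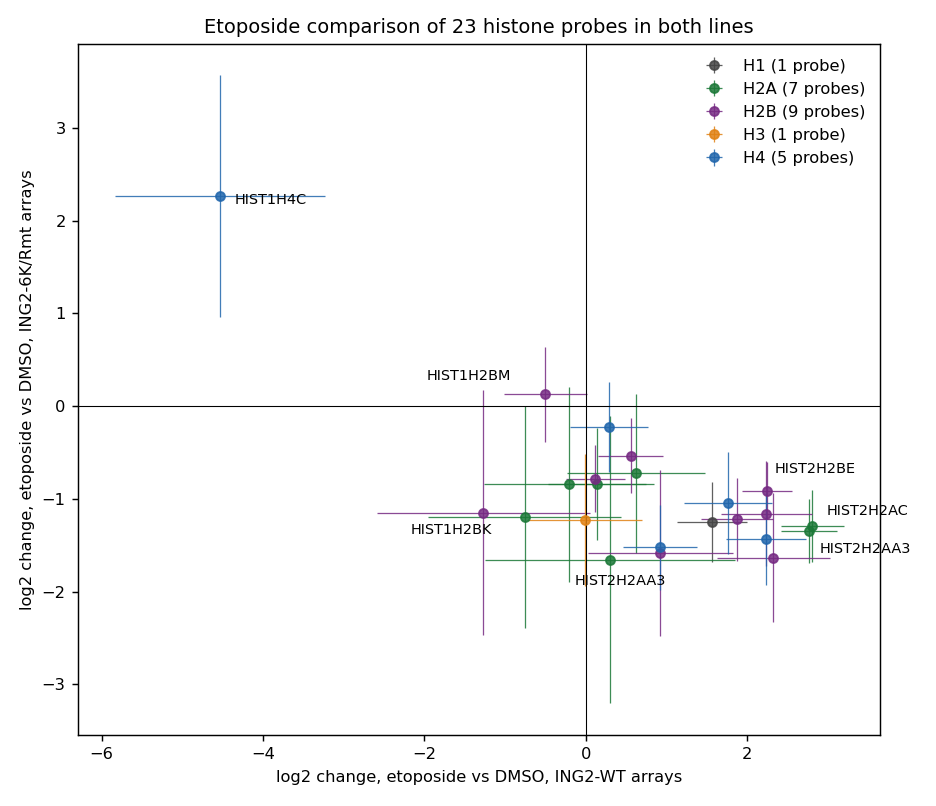
Log2 change between etoposide and DMSO on the ING2-WT arrays (x axis) and the 6K/Rmt arrays (y axis) for the 23 passing probes, coloured by histone class, with bars of 1 standard error. The 17 probes to the right of 0 all lie below 0 on the y axis, and HIST1H4C (-4.53, 2.26) stands at the opposite corner.

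Probes with a positive and with a negative change in ING2-WT were then followed on the 6K/Rmt arrays, which that split does not use. The 17 probes with a positive change in ING2-WT all had a negative change in 6K/Rmt, with a median of -1.22 and a range of -1.66 to -0.22, and the groups did not overlap for 10 of them. Of all 7216 probes tested with a positive change in ING2-WT, 65.7% had a negative change in 6K/Rmt, and for 15.3% the groups did not overlap and etoposide was lower. Of the 6 probes with a negative change in ING2-WT, HIST1H4C and HIST1H2BM were positive in 6K/Rmt and HIST1H2AC, HIST3H2A, HIST1H2BK (ILMN_1813314) and HIST1H3H were negative. All 4 of these were above 64 on ING2-WT etoposide arrays 1 and 2 and under 64 on array 3. By class, H2A changed by a median of 0.31 in ING2-WT and -1.19 in 6K/Rmt, H2B by 0.93 and -1.15, and H4 by 0.92 and -1.05. The H2A probes HIST1H2AC, HIST1H2AG, HIST2H2AA3 (ILMN_1659047), HIST2H2AB and HIST3H2A read 3.28 to 24.0 on ING2-WT etoposide array 3. Each was higher with etoposide on ING2-WT arrays 1 and 2. H2B and H4 also held probes that were low on that array 3, and its part in the class medians was not tested.

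The difference between the etoposide effects, 6K/Rmt minus ING2-WT, was tested directly. It was lower than 0 for 8 of 23 probes (2.02% of all tested) and higher for 0 (3.51%), with a median of -1.96 against 0.06 over all probes tested. At an unadjusted p under 0.05 it was lower for 10 and higher for 1, HIST1H4C. Of the 15459 probes tested it was lower for 1472 and higher for 1624 at that threshold. On the log2 scale HIST2H2AA3 differed by -4.12 ± 0.49 (limma adjusted p = 0.00037) and HIST2H2AC by -4.10 ± 0.55 (0.00085). The others were HIST1H2BC, HIST1H4H, HIST1H2BE, HIST2H2BE, HIST1H2BD and HIST1H1C, at -3.96 to -2.82. HIST1H4C differed by 6.80 ± 1.85, in the other direction, with an adjusted p of 0.057 in limma, and it passed the threshold under each of the other scalings.

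In DMSO, 3 probes were higher in 6K/Rmt than in ING2-WT (0.252% of all tested) and 0 were lower (1.95%). At an unadjusted p under 0.05, 9 were higher and 0 lower, where 614 and 925 of the 15459 probes tested were. The 3 called were HIST2H2AA3 (2.31 ± 0.34), HIST2H2BE (2.05 ± 0.31) and HIST2H2AC (2.02 ± 0.39). Blocking on array number, the pairing of these arrays, made 5 higher (0.582%), with HIST1H2BD and HIST1H1C added. In etoposide, 3 were lower in 6K/Rmt (1.71%) and 0 were higher (2.98%), namely HIST2H2AA3 (-1.81 ± 0.34), HIST2H2AC (-2.09 ± 0.39) and HIST1H4H (-2.39 ± 0.50). At an unadjusted p under 0.05, 9 were lower and 1 was higher, where 1622 and 1980 of the 15459 probes tested were. These comparisons share their arrays with those above and are not separate evidence.

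**Figure D4:**
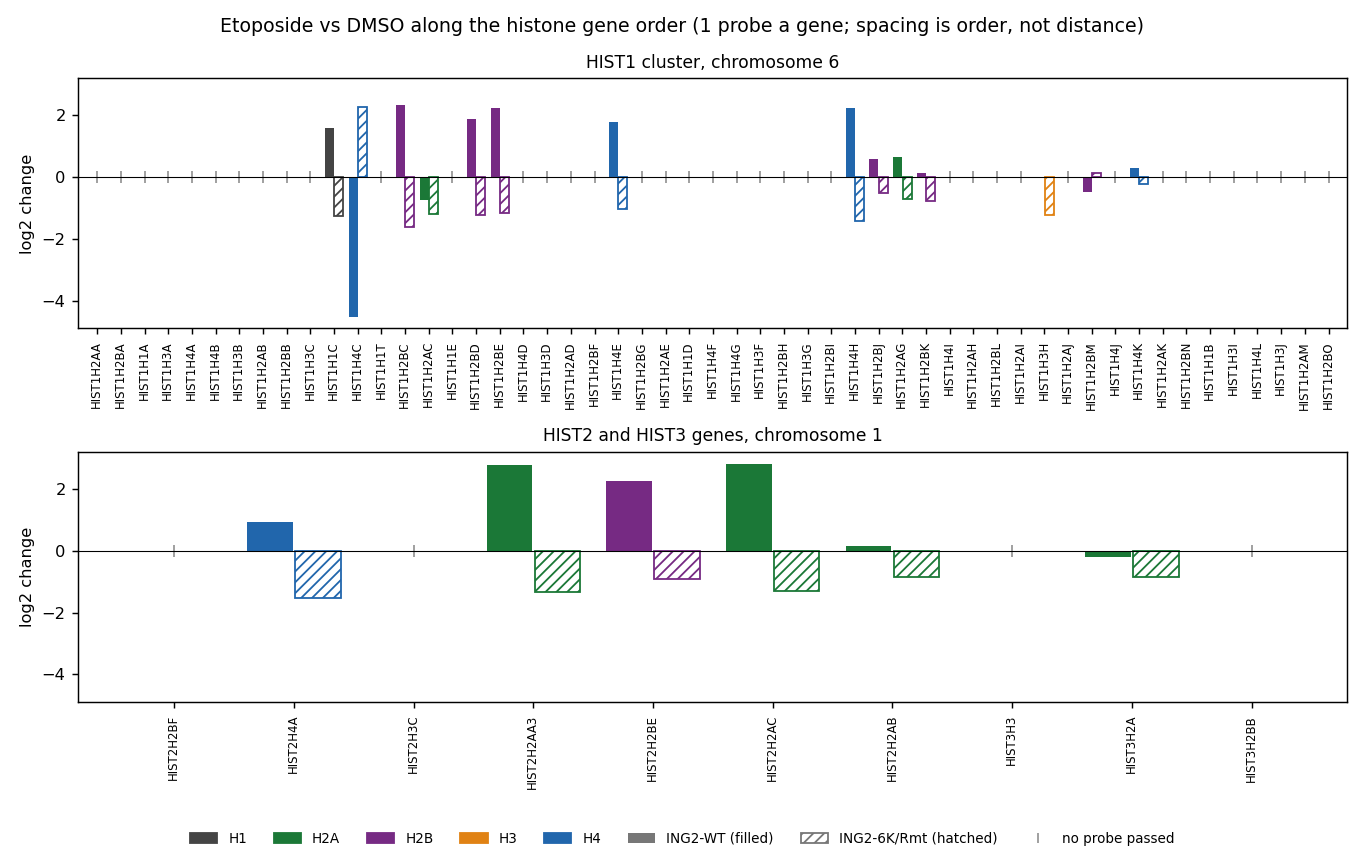
Log2 change between etoposide and DMSO (y axis) along the order of the histone genes on chromosome 6 and chromosome 1 (x axis, order and not distance), 1 probe a gene, filled bars for ING2-WT, hatched bars for 6K/Rmt and a tick where no probe passed; HIST4H4 on chromosome 12 is not drawn. HIST1H4C (-4.53) lies beside HIST1H1C (1.57), and HIST2H2BE and HIST2H2AC (2.25 and 2.81) lie side by side.

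Position in the clusters was set beside these changes as a description. HIST2H4A, HIST2H2AA3, HIST2H2BE, HIST2H2AC and HIST2H2AB, all positive in ING2-WT, lie in the HIST2 cluster, and HIST2H2BE and HIST2H2AC are direct neighbours. In HIST1, the passing genes HIST1H1C, HIST1H4C, HIST1H2BC, HIST1H2AC, HIST1H2BD and HIST1H2BE lie near each other, and HIST1H4C went the opposite way from HIST1H1C, from which HFE separates it. HIST1H2BJ, HIST1H2AG and HIST1H2BK are consecutive coding genes and had changes of 0.56, 0.63 and 0.12 in ING2-WT.

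The histone genes outside the clusters are the nearest relatives of these genes. Of 11 such variant genes, 1 was higher with etoposide in ING2-WT (1.43% of all probes tested) and 0 were lower (2.86%) in limma. At an unadjusted p under 0.05, 1 was higher and 6 were lower, where 1213 and 1616 of the 15459 probes tested were. The median log2 change was -0.77 where that of all probes was -0.06. The called gene was H2AFJ, an H2A variant, which read 572, 510 and 321 in DMSO and 1642, 1397 and 945 in etoposide (1.51 ± 0.35, limma adjusted p = 0.034). H2AFZ, the variant H2A.Z, read 19842, 18158 and 7379 in DMSO and 6186, 6664 and 3164 in etoposide, with no overlap and a change of -1.45 ± 0.46 (limma adjusted p = 0.12). H2AFX, phosphorylated at DNA breaks, changed by -1.85 ± 0.76 (0.22), and H1F0, an H1 of resting cells, by -0.77 ± 0.30 (0.21).

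Factors that act on histone genes were read from lists. Of 10 passing genes for histone transcription, 1 was lower in ING2-WT etoposide (2.86% of all probes tested) and 0 were higher (1.43%). At an unadjusted p under 0.05, 3 were lower and 0 higher, where 1616 and 1213 of the 15459 probes tested were. The called gene was CDK2, the kinase that phosphorylates NPAT, at 1494, 1557 and 834 in DMSO and 278, 402 and 255 in etoposide. NPAT, a coactivator of histone genes, changed by -1.53 ± 0.46 (limma adjusted p = 0.094), and CASP8AP2 did not pass, at most 46.2. Of 11 passing genes for 3′ end processing and decay, 0 were called lower or higher in limma (2.86% and 1.43%). With an unadjusted p under 0.05, 1 was lower and 0 higher, again where 1616 and 1213 of the 15459 were. SLBP, which binds the stem-loop, read 2027, 2323 and 1045 in DMSO and 1295, 1070.3 and 781 in etoposide (-0.73 ± 0.37, limma adjusted p = 0.33).

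Of 19 passing histone chaperones, 3 were lower in ING2-WT etoposide (2.86% of all probes tested) and 0 higher (1.43%). At an unadjusted p under 0.05, 8 were lower and 0 higher, where 1616 and 1213 of the 15459 probes tested were. HJURP, the chaperone of the centromeric H3, changed by -4.35, ASF1B, which hands H3 and H4 to assembly factors, by -2.55, and CHAF1B, a subunit of chromatin assembly factor 1, by -1.44. Of 14 passing S phase and replication genes, 11 were lower (2.86%) and 0 higher (1.43%) in ING2-WT, with a median of -2.36. In 6K/Rmt 10 were higher (1.28%) and 0 lower (0.0712%), with a median of 2.47. At an unadjusted p under 0.05, 13 were lower and 0 higher in ING2-WT, where 1616 and 1213 of the 15459 were. In 6K/Rmt 12 were higher and 0 lower at that threshold, where 745 and 557 of the 15459 were. The summed intensity of the S phase and replication genes was 26388 to 33937 in ING2-WT DMSO and 9898 to 10707 in ING2-WT etoposide. In 6K/Rmt it was 8492 to 9462 in DMSO and 21816 to 27401 in etoposide. HIST1H4C, like this sum, was higher in ING2-WT DMSO and 6K/Rmt etoposide than in the other groups. The 6 probes called in ING2-WT had lower means in those than in the other groups. Within ING2-WT that order was fixed by how the 6 were chosen. The part of cell cycle state in the histone values was not tested, and fewer cells making a transcript cannot be told apart from less of it in each cell.

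A list of histone genes whose promoters were marked as bound by ING2 after etoposide, on other arrays, held 7 genes with a probe here. Those arrays followed a shorter etoposide treatment than the expression arrays. HIST1H1D, HIST1H2BB, HIST1H2BN and HIST1H4F were under 64 on every array. Of the 3 passing genes, HIST1H4H and HIST2H2BE were higher in ING2-WT etoposide in limma (1.43% of all probes tested) and 0 were lower (2.86%). HIST2H2AB changed by 0.14 ± 0.60 (limma adjusted p = 0.93). It read 84.8 and 108 on ING2-WT etoposide arrays 1 and 2 and 3.28 on array 3. The study lists the same peak scores for HIST2H2AB, HIST2H2BE and HIST1H2BB.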

How the data were processed

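Illumina BeadArrays were hybridised with amplified RNA of HT1080 cells, 3 arrays in each of 4 groups. The deposited values were linear probe intensity. The authors had subtracted background and scaled the arrays, by a method not given in the sources used here. A deposited column of unit other held gene symbols. A further 24 columns match no label and were not used. The build is not given, so RefSeq served for current names, gene order and promoters.

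Intensities were quantile-normalised, values under 16 set to 16 and log2 taken. Probes with 64 or more on at least 3 of 12 arrays were kept. A model of 4 group means was fitted to all 15459 probes in limma 3.58.1 (R 4.3.3), with two-sided moderated tests and Benjamini-Hochberg adjustment, and probes with an adjusted p under 0.05 were called. The script was tested on simulated data. Folds of values near the floor are understated.

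Residuals of same-numbered arrays correlated at 0.218 to 0.319 between the ING2-WT groups and at 0.368 to 0.635 between the DMSO groups, so the replicate number pairs those arrays. In the other comparisons 1 pair fell to -0.0658 or 0.0747, and the number was not taken as a pairing. The p-values of the main fit do not use the pairing, and the blocked fit set it on all arrays.

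Named were probes called in any comparison, the brightest 2 of each class, all passing probes of genes with several, listed regulators, and members of other lists called in ING2-WT. Other probes were chosen after their values were seen. Members and lists were chosen with earlier results of these data known. Alternatives covered scaling, floor, filter, probe choice, groups, block, array weights and left-out arrays.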

Additional observations from a re-analysis of the deposited data

Results flagged for a closer look

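For 8 histone probes the effect of etoposide differed between the lines by a direct test, each being positive in ING2-WT and negative on the arrays labelled 6K/Rmt (limma, adjusted over all probes tested). The differences on the log2 scale were -4.12 for HIST2H2AA3 (ILMN_2144426), -4.10 for HIST2H2AC, -3.96 for HIST1H2BC, -3.67 for HIST1H4H, -3.40 for HIST1H2BE, -3.16 for HIST2H2BE, -3.10 for HIST1H2BD (ILMN_1651496) and -2.82 for HIST1H1C. The smallest adjusted p was 0.00037, for HIST2H2AA3, and the largest 0.039, for HIST1H2BC. TOP2A, at 2035 to 3149 in ING2-WT DMSO and 67.1 to 127 in 6K/Rmt DMSO, moved between the same groups, and its part in these differences was not tested.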

How the results depend on the processing

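Over at most 24 alternatives a result, 888 of 1024 values of named probes kept their direction and their side of the threshold, 69 lost the call, 52 gained one and 15 turned sign, all 15 in the ING2-WT etoposide comparison. The count of histone probes called was within 1.5 times its value in 88 of 119 cases. In the order ING2-WT etoposide, 6K/Rmt etoposide, difference of effects, lines in DMSO and lines in etoposide, counts were 6, 0, 8, 3 and 3. Array weights gave 15, 20, 21, 13 and 20, and leaving out the arrays numbered 3 gave 15, 16, 19, 13 and 19. Blocking on array number gave 9 in ING2-WT etoposide, 1 of them lower, 2 in 6K/Rmt etoposide, 10 for the difference of effects, 5 for the lines in DMSO and 10 for the lines in etoposide, 1 of them higher. Over all probes tested, the share called was 1.35% to 5.52% in these comparisons, 29.9% to 40.1% with array weights, 23.5% to 40.8% without the arrays numbered 3 and 2.3% to 14% with the block. In ING2-WT etoposide 75th percentile scaling, no filter and a fit of the compared groups alone gave 3 each. Over all probes, those settings called 167 higher and 440 lower of 15450, 243 and 375 of 48797, and 27 and 73 of 15459. No filter gave 5 for the difference of effects. For the lines in etoposide a floor of 64 gave 6 and the compared groups alone 0. Over all probes these called 473 higher and 308 lower of 48797, 475 and 446 of 15459, and 206 and 101 of 15459. Leaving out 1 array at a time gave 3 to 9, 0 to 2, 5 to 17, 2 to 5 and 1 to 11. The highest count each time was without ING2-WT etoposide array 3. Of the 15148 probes tested without that array, 299, 277, 932, 116 and 878 were higher, in the same order of comparisons. In that order, 611, 55, 621, 423 and 528 were lower. The cause of these shifts was not tested. The other scalings moved the median of all probes by at most 0.18 from 0, for the difference of effects with the 75th percentile, where the histone median was -2.00, and under each of them HIST1H4C passed the threshold for that difference.

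The change of HIST1H3H in ING2-WT turned to 0.076 with cyclic loess, 0.0077 as deposited, 0.36 with a floor of 64, 0.47 with array weights and 0.54 without the arrays numbered 3, and ran from -0.75 to 0.89 with 1 array left out. HIST1H2BK (ILMN_1813314) turned to 0.38 with array weights and 0.46 without the arrays numbered 3, and ran from -2.37 to 0.86 with 1 array left out. Leaving out 1 array also moved HIST1H2BK (ILMN_1796179) from -0.23 to 0.40 and HIST2H2AA3 (ILMN_1659047) from -1.06 to 2.86. The calls of HIST1H2BE, HIST1H2BD (ILMN_1651496) and HIST1H4H in ING2-WT were lost under 16 of 23, 11 of 24 and 9 of 23 alternatives. With 3 arrays a group and most histone probes near background, the dim members are not measured well enough to compare.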
